A study of Mus musculus with 29 samples.

Results

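The genes described here are Pparg, the nuclear receptors that are its closest relatives or partners, and proteins that work with them, namely Ppara, Ppard, Rxra, Rxrb, Ncor1, Ppargc1a, Ppargc1b and Med1. These 9 genes were chosen by symbol for their roles, out of 35199 genes listed in the tables, and each was present in every table used. Levels were measured by RNA-seq of mouse bladder urothelium, the epithelium that lines the bladder. Sorted Gfp+ cells came from 4 controls and 5 mutants, taken 4 days after the last tamoxifen injection, with no BBN. Laser-captured tumor cells came from mice labelled 5M BBN, a nitrosamine given in the drinking water that induces bladder cancer. In the study these mutants and controls received tamoxifen into the bladder after 1 month of BBN. Tumors were examined 4 months after that induction (4M in the titles). The captured cells comprised 3 basal tumors of controls and 3 luminal tumors of mutants. Mixed tumors of mutants gave 3 luminal and 3 basal-like libraries more, 1 for each captured domain. Mutants are labelled K5VP16;Pparg+/- and controls wild type, and the labels give no age. In the study's methods the sorted controls are K5;mTmG mice, so they share with the mutants a tamoxifen-inducible Cre driven by the Krt5 promoter of basal cells and a Gfp lineage reporter. For the control tumors the study names both K5;mTmG and VP16;Pparg fl/fl mice, the latter without Cre, and the labels do not say which were sequenced. Mutants carry in addition, at Rosa26, the HSV VP16 activator fused to a Pparg1 cDNA, which a CAG promoter transcribes once Cre has removed a stop cassette. The tables give 1 value for Pparg and do not tell transgene transcripts apart from endogenous ones. Of 8 further libraries, from wild-type mice with or without 1 month of BBN, no value is analysed here, because no label says which columns belong to which condition.

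Peroxisome proliferator-activated receptors (PPARs) are ligand-activated transcription factors. Each binds DNA as a heterodimer with a retinoid X receptor (RXR), at paired half-sites separated by a single base, and fatty acids and their derivatives are natural ligands. Without ligand, corepressors such as Ncor1 hold target genes down through histone deacetylation, and with ligand coactivators are recruited in their place. Pparg is best known as the regulator of fat cell formation, and in the bladder it is associated with the luminal, superficial cell program. The VP16 domain makes a fused receptor active in the absence of ligand.

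Pparg lies at chr6:115360879-115490404 on the plus strand in the RefSeq annotation of GRCm38.p6, where its transcripts begin at several start sites. The values are sums per gene and do not tell which start was used. The 250 bases before the first and before the last of its 3 starts in the promoter list are shown. Pparg was chosen because it had the largest log2 fold change among the 9 in both comparisons with basal tumors. They come from chr6:115360894-115361143 and chr6:115421816-115422065, both on the plus strand. The promoter of the target gene Fabp1, from chr6:71199629-71199878 on the plus strand, is shown beside them because it holds the paired half-site, in capitals.
Pparg, first start: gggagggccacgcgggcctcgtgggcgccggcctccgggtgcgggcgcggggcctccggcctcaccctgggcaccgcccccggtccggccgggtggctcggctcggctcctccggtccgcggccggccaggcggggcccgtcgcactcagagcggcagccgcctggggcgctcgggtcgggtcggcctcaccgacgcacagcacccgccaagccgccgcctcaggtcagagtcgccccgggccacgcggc
Pparg, last start: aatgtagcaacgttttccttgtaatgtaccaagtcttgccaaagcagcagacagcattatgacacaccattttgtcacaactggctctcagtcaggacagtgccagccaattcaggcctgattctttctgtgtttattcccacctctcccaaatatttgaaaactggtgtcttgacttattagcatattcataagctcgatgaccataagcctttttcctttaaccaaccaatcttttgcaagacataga
Fabp1: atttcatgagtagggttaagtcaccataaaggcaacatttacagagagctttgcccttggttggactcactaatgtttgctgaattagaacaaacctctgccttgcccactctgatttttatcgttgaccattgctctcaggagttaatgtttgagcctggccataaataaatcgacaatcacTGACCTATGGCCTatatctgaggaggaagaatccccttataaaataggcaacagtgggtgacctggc
The first Pparg promoter holds 82.4% G and C and the last 40.8%, against a median of 52.4% over 32851 RefSeq promoters. The sequence AGGTCANAGGTCA, where N is any base, was searched on both strands from 250 bases before to 50 after each start. It was found in 0.0396% of all promoters, and in 0 of the 13 promoters listed for 8 of the 9 genes (no promoter was listed for Ppargc1b). The looser form AGGNCANAGGNCA, which includes the first, was found in 0.381% of all promoters and again in 0 of these 13. Among 33 promoters of PPAR target genes it was found in 1, that of Fabp1, on the minus strand and beginning 67 bases before the start.

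Values are normalized counts, that is estimated reads per gene divided by factors that bring the libraries of a table to a common scale. Each table was normalized on its own, so levels are compared within a table, and never between genes, whose transcript lengths differ. Log2 fold changes are on the log2(normalized count + 1) scale, which understates changes of low genes. A gene passed the test when its p in limma, adjusted over all genes tested by the Benjamini-Hochberg method, was under 0.05. The test took genes that reached 10 normalized counts in at least the number of libraries of the smaller group, and all 9 genes met this in all 4 comparisons. Libraries are numbered by their order in the table. Depth in reads is unknown for every library, beyond a target that the study's methods state. Nothing states whether libraries of a group came from separate mice, and p-values then measure only the spread between these libraries.

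In the sorted cells 0 of the 9 genes passed the test 4 days after induction, where 2.85% of all 16413 genes tested did, and 3 of the 9 (Pparg, Ppargc1a and Rxrb) had an unadjusted p under 0.05 in limma, as had 20.8% of all genes tested. Pparg itself was lower in the mutants in every library. Its normalized counts were 9617, 9999, 9821 and 9381 in the 4 controls, and 6646, 9032, 6111, 7863 and 8458 in the 5 mutants. The highest mutant lay below the lowest control, and the mutants were also spread more widely. Controls averaged 9705 ± 266 (SD, n = 4) and mutants 7622 ± 1223 (SD, n = 5), with a log2 fold change of -0.36 (SE 0.12) and a 95% confidence interval of -0.63 to -0.096. With an adjusted p of 0.126 (limma), this difference did not pass. It was the only one of the 9 genes whose groups did not overlap, and 9.18% of all genes tested had groups that did not. In such bulk samples fewer cells of a type and less RNA per cell cannot be told apart. A rise of total Pparg transcript was not measured in the mutants, and the share of it that is transgene is unknown.

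The other members of the PPAR family overlapped between the groups. Ppara, a driver of fatty acid oxidation in liver, had 2439, 2419, 2207 and 1845 normalized counts in controls. In mutants it had 1059, 1423, 1819, 2233 and 2373. Mutant libraries 1, 2 and 3 were below every control, library 3 only just, while 4 and 5 were among them. The log2 fold change was -0.37 (SE 0.23) with an adjusted p of 0.383 in limma. Ppard, the most widely expressed of the family, lay between 153 and 273 in controls and between 208 and 281 in mutants, and its log2 fold change was 0.10 with an interval of -0.35 to 0.56.

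Both RXR genes that are members had lower means in mutants without passing. Rxra, the main heterodimer partner in epithelia, had 15258, 16072, 18946 and 16024 normalized counts in controls. In mutants the counts were 13057, 15097, 12583, 13520.4 and 17171. Mutant library 5 was above 3 of the 4 controls. The log2 fold change was -0.22 (SE 0.12) and the adjusted p 0.315 in limma. Rxrb, a more uniformly expressed partner, had 2252, 2590.4, 2252 and 2656 in controls and 1809, 2551, 1580.4, 1981 and 1896 in mutants. Of the mutants only library 2 reached the control range, and the log2 fold change was -0.33 (SE 0.13) with an adjusted p of 0.206 in limma. Rxrg, the third RXR, had 15.2, 13.0, 13.6 and 11.6 in controls and 7.03, 6.89, 7.27, 6.43 and 4.87 in mutants. It met the filter only through the controls, where it is higher, so its test and the lack of overlap are given no weight here.

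Of the co-regulators, Ppargc1a had the largest difference. It encodes PGC-1alpha, a coactivator of PPARs that promotes mitochondrial biogenesis. Its normalized counts were 437, 387, 471 and 313 in controls and 617, 587, 578, 467 and 545 in mutants. Only mutant library 4 fell within the control range, just below control library 3. The log2 fold change was 0.48 (SE 0.16) with an interval of 0.14 to 0.83 and an adjusted p of 0.117 in limma. Its relative Ppargc1b lay between 327 and 493 in controls and between 306 and 517 in mutants, and its log2 fold change was 0.078. Med1, the Mediator subunit that contacts ligand-bound nuclear receptors, lay between 2061 and 2399 in controls and between 1657 and 2988 in mutants, at 0.068 on the log2 scale. The corepressor Ncor1 lay between 6771 and 7220.2 in controls and between 5872 and 7556 in mutants. At a log2 fold change of -0.050 with an interval of -0.24 to 0.14, it had the narrowest interval of the 9. In the GENCODE annotation its exons share 82 bases with Pigl and 1 base with Ttc19 on the opposite strand, and the other members share exon bases with no other gene there.

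**Figure D1:**
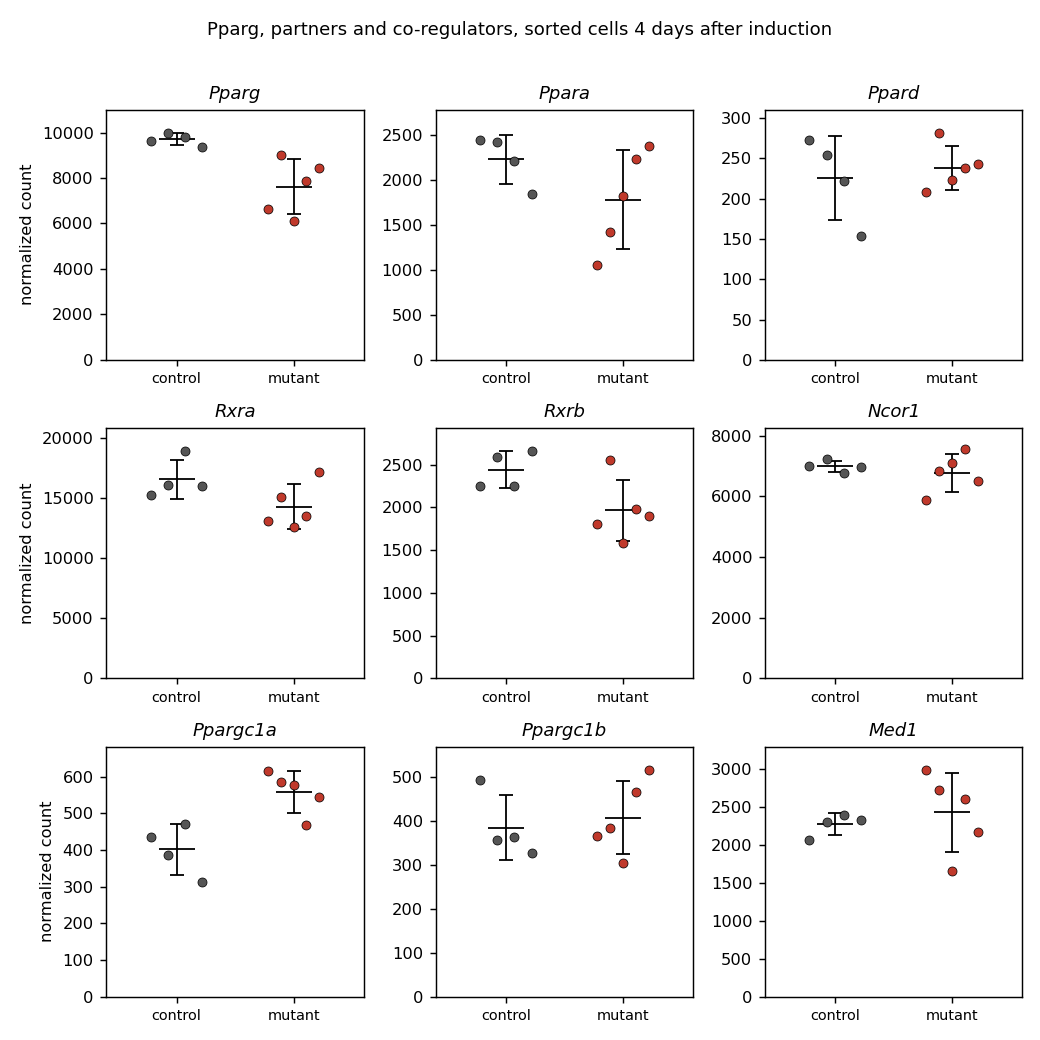
Normalized counts of the 9 genes in 4 control (grey) and 5 mutant (red) libraries of sorted cells 4 days after induction, 1 point per library, with the mean and SD in black. The mutant points of Pparg lie below every control point, between 6111 and 9032, and those of the other genes overlap the controls.

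The wider lists of receptors and co-regulators held no gene that passed in these cells. Of 16 tested genes for PPARs, RXRs and the other receptors that pair with RXR, 0 passed and 13 were lower in mutants. Over all genes tested 8127 of 16413 were lower. The median log2 fold change of the 16 was -0.35 against 0.0045 over all genes tested. Rxrg, which is given no weight, is included in these values. With a filter of 50, which Rxrg does not meet, 13 receptors were tested and their median was -0.34. Of 10 corepressor genes 0 passed, 6 were lower, and the median was -0.088. Of 15 coactivator genes 0 passed and 9 were lower, with a median of -0.10. Ncoa1, Ncoa2 and Ncoa3, the histone acetyltransferase-recruiting p160 coactivators, had log2 fold changes of 0.062, -0.20 and -0.14. Of 8 tested genes that make or degrade lipid ligands 0 passed, 4 were higher and 4 lower. Unadjusted p-values under 0.05 in limma numbered 7 of 16, 4 of 10, 1 of 15 and 2 of 8 in these lists, beside 20.8% of all genes tested. Rxrg is 1 of the 7. In some alternatives up to 2 receptors, lower in mutants, and 1 corepressor passed. A corepressor passed as lower with a pseudocount of 5, a filter of 50, quantile or upper-quartile scaling, and without control 1 or mutant 5. Without mutant 4 the 1 that passed was higher.

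Among the genes that PPARs are known to activate, several rose in the mutants. Of 36 listed target genes 29 were tested, 9 passed and each of these rose, against 2.85% of all genes passing. Of the 9, Fabp1 met the filter only through the mutants, where it is higher, so 8 rose without that condition. The median log2 fold change over the 29 was 0.75, beside 0.0045 over all genes tested. Of the 29, 22 were positive, as were 50.5% of all genes tested. These values include targets, Fabp1 among them, that met the filter only through the mutants. The median was 0.66 over 34 targets with no filter and 0.63 over 25 with a filter of 50. The number that passed was 6 to 10 when a library was left out and 6 in the table of 6 libraries, which lacks control 1. Fabp4, the fatty acid binding protein of fat cells and a classical Pparg target, had 327, 449, 207 and 467 normalized counts in controls. In mutants it had 30598, 7617, 4969, 5904 and 6934. Every mutant was above every control, and mutant library 1 was far above the other mutants. The log2 fold change was 4.64 (SE 0.49), with an adjusted p of 0.00171 in limma, and without mutant library 1 it was 4.18.

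Plin2, which coats lipid droplets, had 12026, 12141, 11318 and 11066 in controls and 23264, 20075, 18868, 22870.2 and 22848 in mutants. These groups were far apart relative to their spread, with a log2 fold change of 0.89 (SE 0.094) and an adjusted p of 0.00171 in limma. Angptl4, a secreted inhibitor of lipoprotein lipase, rose by 1.83 on the log2 scale (adjusted p 0.0140, limma). Its normalized counts lay between 1049 and 1347 in controls and between 2041 and 6558 in mutants. In the table of 6 libraries the adjusted p of Angptl4 was 0.106. Gk, glycerol kinase, rose by 1.84 (adjusted p 0.0485, limma), and it was the only one of the 9 rising targets whose groups overlapped. Gk kept its call in 1 of 9 fits with a library left out, that without mutant 4, and the adjusted p in the others ran up to 0.138 (limma).

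Ehhadh encodes an enzyme of peroxisomal fatty acid oxidation. Its normalized counts lay between 856 and 1019 in controls and between 1559.8 and 3259 in mutants, and it rose by 1.29 on the log2 scale (adjusted p 0.0220, limma). Carriers of fatty acids and of acyl-CoA rose as well. Fabp5 lay between 1717 and 2583 in controls and between 5721 and 14611 in mutants and rose by 1.90, and Dbi, the acyl-CoA binding protein, rose by 0.89. The adjusted p-values of Fabp5 and Dbi in limma were 0.00539 and 0.0196. Without control 2 or without control 4, Dbi was at adjusted p 0.0605 and 0.0541, and Ehhadh, which also lost its call without control 3, at 0.0703 and 0.0681. Fabp1, whose promoter is printed above, lay between 1.07 and 11.3 in controls and between 32.4 and 96.6 in mutants, at low counts throughout, with a log2 fold change of 3.51 and an adjusted p of 0.0138 in limma. The adjusted p of Fabp1 was 0.0178 in limma when no filter was applied, and with a filter of 50 it was not tested and 8 of 25 targets passed. Other oxidation targets did not pass: Cpt1a, the mitochondrial entry step, was at 0.066, and Pdk4, which blocks pyruvate oxidation, at -0.22.

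**Figure D2:**
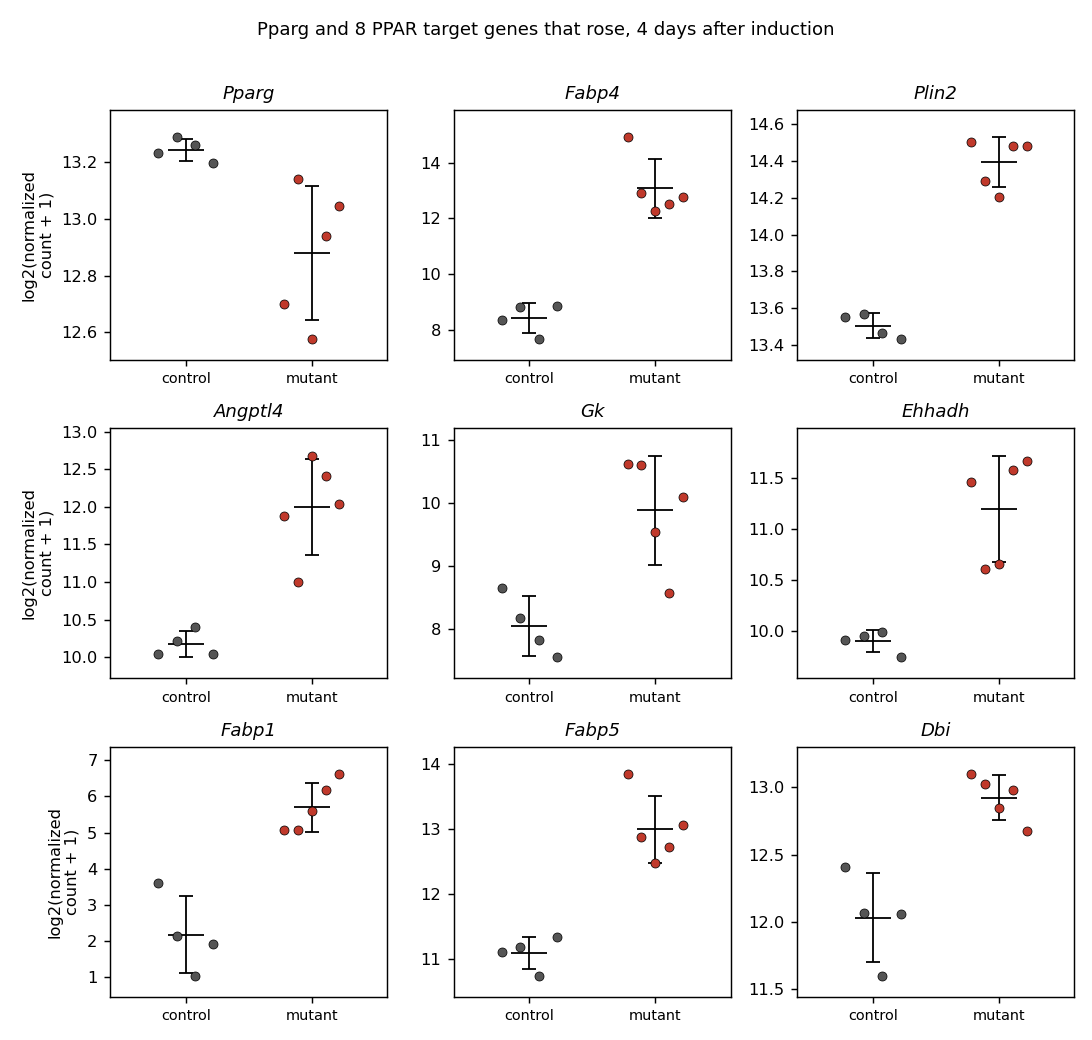
Log2(normalized count + 1) of Pparg and of 8 PPAR target genes that rose, in 4 control (grey) and 5 mutant (red) libraries of sorted cells, 1 point per library, with the mean and SD in black and a separate axis range in each panel. The target points of the mutants lie above those of the controls in every panel but that of Gk, while the Pparg points of the mutants lie below.

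Y-linked genes differed between most controls and the mutants. The mean log2 level of Y-linked genes was 11.05 to 11.11 in controls 2, 3 and 4, and 5.16 to 5.91 in control 1 and all 5 mutants, so control 1 alone shared the mutants' level. The table of 6 libraries and the fit without control 1 lack that library, so there group and level cannot be told apart. With this level, entered as high or low, as a covariate chosen after the values were seen, 26 genes passed in all. Of the 29 targets 0 passed, and of the 9 members 0. Control 1 was the only control at the low level, so this fit sets the mutants against that 1 library. Fabp4 was then at 4.71 (adjusted p 0.128, limma) and Plin2 at 0.84 (adjusted p 0.164, limma). Sums of fibroblast, leukocyte and endothelial markers overlapped between the groups. Summed normalized counts of 8 fibroblast and smooth muscle markers were 11578 to 85186 in controls and 30242 to 215936 in mutants, where all 8 had positive log2 fold changes and 0 passed. Those of 7 leukocyte markers were 793 to 1766 and 384 to 2467, and of 4 endothelial markers 275 to 1145 and 269.5 to 1203, with 0 passing. The 5 markers of basal cells, in which the Krt5 promoter is active, summed to 141693 to 177228 and 97763 to 137499, and 2 of them passed. These sums did not overlap and were lower in mutants, although 2 of the 5 markers had positive log2 fold changes. The 9 luminal markers summed to 255382 to 429759 and 293551 to 526089, with overlap, and 1 passed. Of these 9, 7 had positive log2 fold changes. Of 4 adipocyte markers Lep was at 0 in every mutant and Adipoq in every control, and their sum was 15.4 to 49.4 in controls and 23.8 to 98.5 in mutants. The part of other cells in the target values was not tested.

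In tumors Pparg had the largest log2 fold change of the 9 genes. In the table of 8 libraries its normalized counts were 126, 13.0 and 102 in the 3 basal tumors. The 3 luminal tumors had 7216, 8632 and 3579, and the 2 luminal domains measured with them had 4948 and 4519.8. Every library of mutant origin was far above every basal tumor. The ranges of luminal tumors and luminal domains overlapped, and no test was made between those. Luminal tumors averaged 6476 ± 2606 (SD, n = 3) and basal tumors 80.3 ± 59.4 (SD, n = 3), for a log2 fold change of 6.74 (SE 0.80) with an interval of 4.94 to 8.53. With an adjusted p of 0.0135 in limma, Pparg was the 1 member that passed, where 2.2% of 15357 genes tested did. It did not pass without luminal tumor 1 or without luminal tumor 2, at adjusted p 0.0879 and 0.0814 in limma, while the log2 fold change stayed at 6.61 and 6.48. Since the mutants carry the Pparg1 cDNA, this value holds transgene and endogenous transcript together.

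The remaining PPARs and their partners overlapped between luminal and basal tumors. Ppara was low, with 0, 49.2 and 22.5 in basal tumors and 78.1, 38.2 and 0 in luminal tumors, and a library of each group was listed at 0. Ppard had 136, 508 and 496 in basal tumors and 447, 1549 and 372 in luminal tumors, with luminal tumor 2 well above the rest. Rxra had 497, 2864 and 2797 in basal tumors and 3445, 2210.1 and 2344 in luminal tumors. Here basal tumor 1 stood apart, below the other 5 tumors. Rxrb had 827, 1172 and 1137 in basal tumors and 1054, 1219.6 and 2221 in luminal tumors, and luminal tumor 3 was the highest. The log2 fold changes were 0.46 for Ppara, 0.97 for Ppard, 0.72 for Rxra and 0.46 for Rxrb. Their intervals all included 0, and the interval of Rxrb, -0.50 to 1.42, was the narrowest of these 4. Without basal tumor 1 the sign of Rxra turned (-0.12), as did that of Ppara (-1.24).

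None of the 4 co-regulators passed in the tumors, and each had groups that overlapped. Ppargc1a had 0, 1.68 and 57.0 in basal tumors and 692, 47.2 and 1.66 in luminal tumors, so that 1 luminal tumor carried most of the group's sum. The 2 luminal domains were at 174 and 155. Its log2 fold change of 3.05 (SE 2.19) had an adjusted p of 0.498 in limma. Ppargc1b had 0, 196 and 189.8 in basal tumors and 51.4, 236 and 127 in luminal tumors, and basal tumor 1 was again the low one. Ncor1, with 2174, 4959 and 3433 in basal tumors and 3316, 4185 and 3602 in luminal tumors, was at 0.14 with an interval of -0.66 to 0.95. Med1, with 2189, 1369.7 and 1072 in basal tumors and 992, 1752 and 2145 in luminal tumors, was at 0.071 with an interval of -0.94 to 1.08. All 9 log2 fold changes were positive in this comparison, but those of Ncor1 and Med1 turned under another scaling (quantile normalization and the upper quartile, respectively). The count includes Ppara, Ppargc1a and Ppargc1b, which had fewer than 3 basal tumors at 10 normalized counts. They met the filter only with luminal libraries, where their means are higher, so their fold changes are given no weight.

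**Figure D3:**
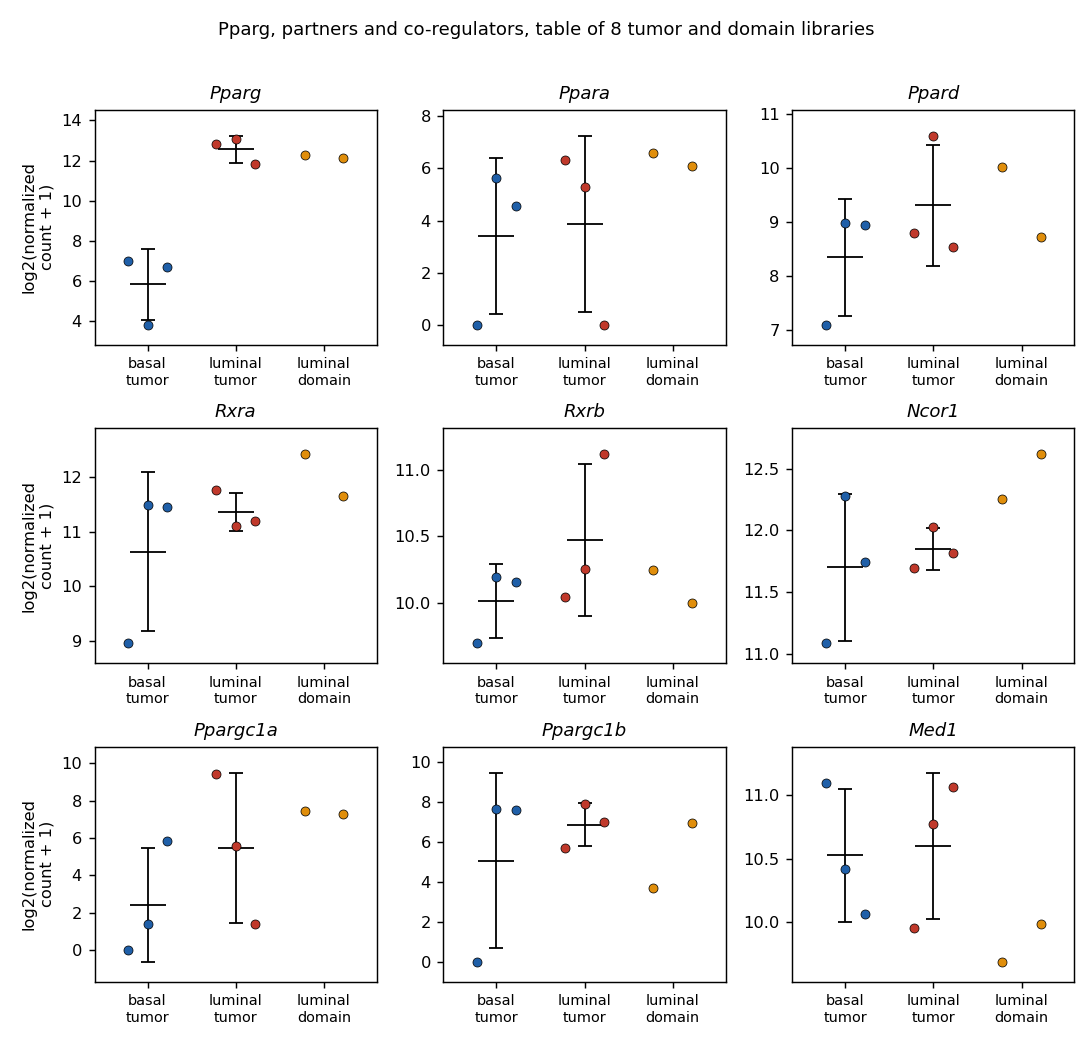
Log2(normalized count + 1) of the 9 genes in 3 basal tumors (blue), 3 luminal tumors (red) and 2 luminal domains (orange), 1 point per library. Black marks give the mean and SD of groups of 3, and each panel has its own axis range. Only in the Pparg panel do all red and orange points lie above all blue points.

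PPAR target genes had no common direction between the tumors. Of 25 targets tested 0 passed, 12 were positive, and the median log2 fold change was -0.13 beside -0.11 over all genes tested. The sign of this median turned in some alternatives, to 0.33 under quantile normalization (where the median over all genes tested was 0.021), 0.52 with a filter of 50 and 0.19 in the 6 tumors alone. With no filter it moved the other way, to -0.55 over 35 targets, where the median over all genes tested was -0.19. With a library left out it ranged from -0.16 without luminal tumor 1 to 0.52 without basal tumor 3. With luminal tumors and domains pooled it was 0.12 and 2 targets passed, both higher, and without basal tumor 2 a single target passed, lower in luminal tumors. The number at an unadjusted p under 0.05 was 9 of 25, beside 18.4% of all genes tested. Fabp4 had 1082, 75.5 and 48304 normalized counts in basal tumors. In luminal tumors it had 31727, 310097 and 197271. Basal tumor 3, whose Pparg count was 102, exceeded luminal tumor 1 in Fabp4, and the log2 fold change of 6.30 (SE 2.17) had an adjusted p of 0.172 in limma. Pdk4 had 5.81, 60.1 and 36.9 in basal tumors and 214, 456 and 281 in luminal tumors, with no overlap and an adjusted p of 0.145 in limma. It had fewer than 3 basal tumors at 10 normalized counts and met the filter only with luminal libraries. Its lack of overlap is therefore given no weight, and it is 1 of the 9 targets at an unadjusted p under 0.05 in limma. Angptl4 had the opposite sign, with 1713, 1463 and 2759 in basal tumors and 587, 244 and 598 in luminal tumors, for a log2 fold change of -2.11 with an adjusted p of 0.100 in limma. Plin2 and Cpt1a were at 0.92 and 0.57, each with overlapping groups.

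Among the other lists 0 genes passed in the tumors apart from Pparg, and without luminal tumor 3 there was 1, a gene of ligand supply that was lower in luminal tumors. Of 13 tested receptors that pair with RXR, Pparg included, 9 were positive. Of 10 corepressors 6 were positive and 4 had groups that did not overlap, against 21.5% of all genes tested. Of 15 coactivators 8 were negative, with Ncoa1 at 0.59, Ncoa2 at -1.04 and Ncoa3 at 0.16. Of 7 genes of ligand supply 3 were positive. Of the corepressors, coactivators and ligand genes 3, 3 and 2 had an unadjusted p under 0.05 in limma, as had 18.4% of all genes tested. Rxrg, with at most 3.13 normalized counts in these 8 libraries, was not tested. Markers of other cells differed between these groups. Fibroblast and smooth muscle markers summed to 48726 to 102618 in basal and 224 to 18106 in luminal tumors, and leukocyte markers to 24249.9 to 133220.0 and 470.0 to 9079.7. The luminal markers summed to 5803 to 27407 and 156189 to 897379, and the basal ones to 294354 to 660773 and 14061 to 201081. The part of these cells in the values above was not tested.

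The luminal domains of mixed tumors were set against the same 3 basal tumors, in a table of their own with 3 libraries a side. The basal tumors are shared with the comparison above, so the results are not independent of it. Pparg had 135, 13.7 and 109 in basal tumors and 5405, 5001 and 4051 in luminal domains. Its log2 fold change was 6.31 (SE 0.86) with an interval of 4.33 to 8.29, at means of 85.9 ± 63.9 (SD, n = 3) and 4819 ± 695 (SD, n = 3). With an adjusted p of 0.0239 in limma it was again the 1 member to pass, where 2.53% of 14921 genes tested passed. Without basal tumor 1, or without luminal domain 1, 2 or 3, its adjusted p in limma was 0.0544, 0.119, 0.121 and 0.0904, and 0.0587 without a trend. The log2 fold change stayed at 6.22 or above in these fits.

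In addition, 3 members had luminal domains above every basal tumor without passing, where 26.8% of all genes tested had groups that did not overlap. Of these, Ppargc1a and Ppara had fewer than 3 basal tumors at 10 normalized counts and met the filter only with the luminal domains, where they are higher, so their lack of overlap is given no weight. Ppargc1a had 0, 1.80 and 61.7 in basal tumors and 193, 174 and 711 in luminal domains. Luminal domain 3 was the highest by far. Ppara had 0, 53.9 and 24.9 in basal tumors and 107, 77.2 and 142 in luminal domains, and basal tumor 1 was listed at 0. Ncor1 had 2306, 5157 and 3599.6 in basal tumors and 5258, 6846 and 5506 in luminal domains, where luminal domain 1 was just above basal tumor 2. Its log2 fold change was 0.74 (SE 0.34) and its adjusted p 0.272 in limma.

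The other 5 overlapped. Rxra had 518, 2928 and 2884 in basal tumors and 5765, 3458 and 2638 in luminal domains, at 1.19 on the log2 scale. Luminal domain 3 lay between the basal tumors. Rxrb was at 0.30, Ppard at 0.74 and Ppargc1b at 1.14. The last of these had 0, 162 and 158 in basal tumors and 10.3, 104 and 233 in luminal domains, and its interval ran from -3.91 to 6.19. It too met the filter only with the luminal domains. Med1 was the 1 member with a negative value, -0.45, over ranges of 1198 to 2474 in basal tumors and 946 to 1576 in luminal domains.

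Of 24 targets tested against basal tumors 1 passed, where 2.53% of all genes tested did. With a library left out 0 to 2 targets passed as higher and 0 to 1 as lower, and without basal tumor 2 there were 2 and 1. The target that passed was Pnpla2, the lipase that starts triglyceride breakdown. It had 303, 1182 and 549 in basal tumors and 3669, 5530.2 and 3718 in luminal domains. The groups were well apart, with a log2 fold change of 2.86 (SE 0.52) and an adjusted p of 0.0374 in limma. Of the 6 fits with a library left out it passed in 1, that without basal tumor 2, and the adjusted p in the others ran up to 0.161 (limma). Pdk4 was at 3.81 and Cpt1a at 1.70, with adjusted p 0.128 and 0.210 in limma. Here too Pdk4 met the filter only with the luminal domains, so its value is given no weight. Fabp4 overlapped widely, with 1137, 77.7 and 50164 in basal tumors and 337014, 6468 and 15077 in luminal domains, so that only luminal domain 1 was above all basal tumors. Plin2 was at 0.74 and Angptl4 at -1.36. The median over the 24 targets was 0.45, beside 0.0097 over all genes tested, and -0.070 with no filter. Of the 10 corepressors 7 were positive and of 14 coactivators 11 were negative. Ncoa1, Ncoa2 and Ncoa3 were at -0.10, -0.069 and 0.10. Of 13 receptors 12 were positive and of 7 genes of ligand supply 4. Of the corepressors, coactivators and ligand genes 3, 2 and 3 had an unadjusted p under 0.05 in limma and 0 passed, beside 20.6% of all genes tested. Ppargc1a, given no weight above, is 1 of the 2 coactivators. Fibroblast and smooth muscle markers summed to 50357 to 107048 in basal tumors and 6367 to 32826 in luminal domains. Leukocyte markers summed to 25199 to 140094 and 6777 to 14378, luminal markers to 6115 to 28362 and 130007 to 523228, and basal markers to 318350.0 to 705768 and 168986 to 273877. None of these 4 sums overlapped between the groups, and their part in the values above was not tested.

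The basal-like domain lies, like the luminal domain, in mixed tumors, and this comparison asks how the genes differ between the 2 compartments of a mutant lesion. Its luminal domain libraries are those used against basal tumors. Which libraries of the 2 domains came from 1 tumor is not stated, and they were tested as unpaired. Their library numbers run in neighbouring pairs, 1 luminal and 1 basal-like, but no label says that such a pair is 1 tumor. The unpaired test leaves any such pairing out, so differences within a tumor were not tested. Pparg had 5427, 5086 and 4116 in luminal domains and 3230.2, 2902 and 2326 in basal-like domains. The groups did not overlap, and every basal-like value was lower. The means were 4876 ± 680.2 (SD, n = 3) and 2819 ± 458 (SD, n = 3), with a log2 fold change of -0.79 (SE 0.24) and an interval of -1.34 to -0.24. The unadjusted p was 0.0104 and the adjusted p 0.864 in limma, so this difference did not pass. No gene of 14874 did (0% called), although 757 had an unadjusted p under 0.05, and without a trend in limma 20 genes passed, none of the 9 among them. The basal-like domains were not compared with basal tumors, which lie in other tables.

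All 9 genes had a negative log2 fold change here, and among 7 of them it lay between -0.077 for Rxrb and -1.04 for Ppara. The other 2, Ppargc1a and Ppargc1b, had fewer than 3 basal-like domains at 10 normalized counts and met the filter only with the luminal domains, so their fold changes are given no weight. Ppargc1a had 212, 193 and 788 in luminal domains and 3.39, 8.16 and 323 in basal-like domains. Basal-like domain 3 lay among the luminal domains, and the other 2 were under 10 normalized counts. Ppara, with 140.3, 103 and 189 in luminal domains and 98.2, 59.0 and 52.5 in basal-like domains, was the other gene of the 9 without overlap (10.8% of all genes tested), at -1.04 (SE 0.79). Rxra had 5814, 3533 and 2692 in luminal domains and 3635, 2935 and 2629 in basal-like domains. Ncor1 had 5158, 6802 and 5466 in luminal domains and 3251, 5946 and 4686 in basal-like domains, and in both genes the groups overlapped. Their log2 fold changes were -0.33 and -0.36, with intervals of -1.07 to 0.42 and -0.99 to 0.27. Ppargc1b had 11.0, 113 and 252 in luminal domains and 0.700, 82.7 and 223 in basal-like domains, so that libraries within a domain differed by far more than the domains. Ppard was at -0.20 and Med1 at -0.12. Rxrg, which did not pass the filter, had 1.10, 0.924 and 0 in luminal domains and 132, 0.851 and 0 in basal-like domains. The signs of Ppard, Rxrb, Ppargc1b and Med1 turned when a single library was left out.

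**Figure D4:**
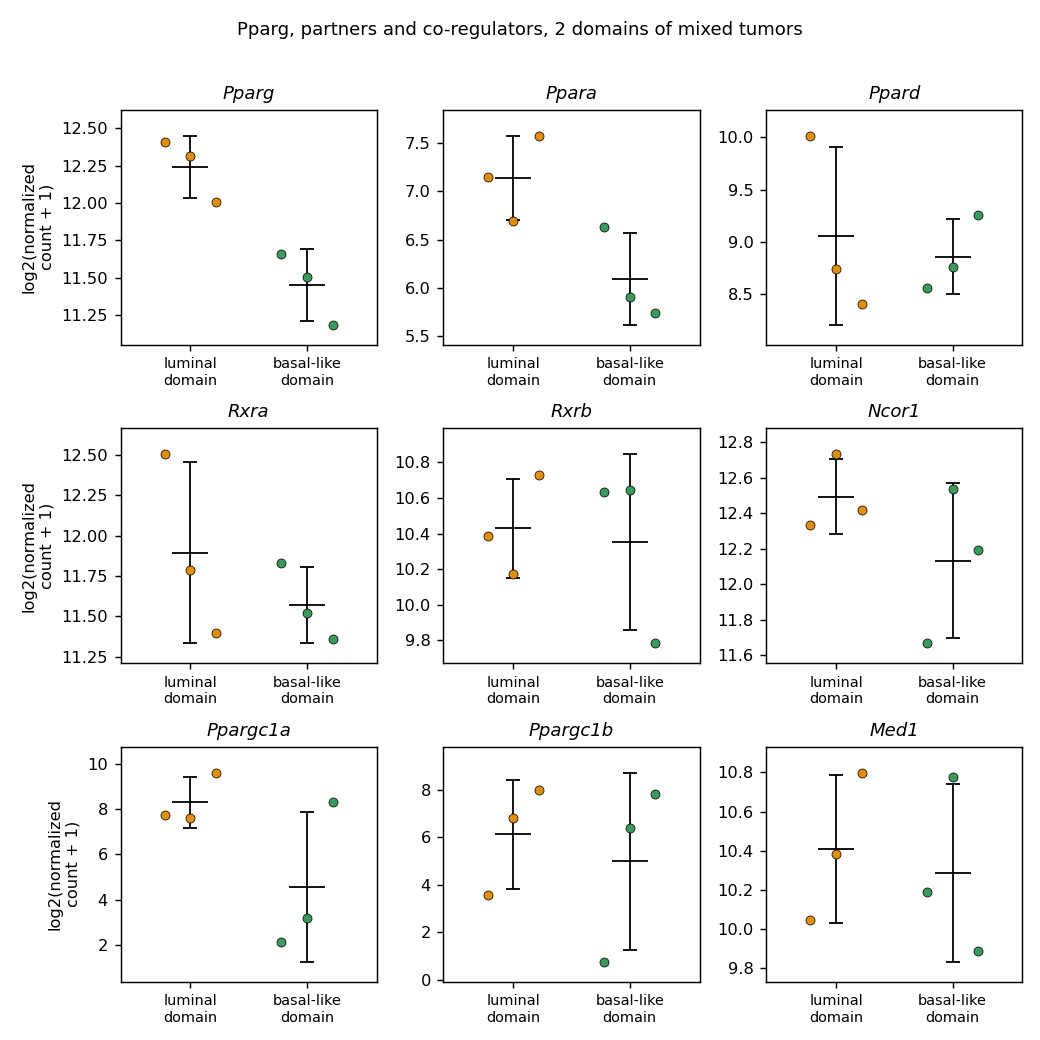
Log2(normalized count + 1) of the 9 genes in 3 luminal domains (orange) and 3 basal-like domains (green) of mixed tumors, 1 point per library, with the mean and SD in black and a separate axis range in each panel. The Pparg and Ppara points of the basal-like domains lie below those of the luminal domains, and the other panels overlap.

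Of 24 targets tested between the domains 0 passed, 2 had an unadjusted p under 0.05 in limma (as had 5.09% of all genes tested), 15 were negative, and the median was -0.28 beside 0.0093 over all genes tested. Plin2 was at -0.78 with overlapping groups, and Pnpla2 at -0.98 without overlap. Fabp4 had 336309, 6538 and 15225 in luminal domains and 201809, 17115 and 3419.7 in basal-like domains. The first library of each domain was an order of magnitude above the rest, and the log2 fold change was -0.50 (SE 1.74). Angptl4, Cpt1a and Pdk4 were at 0.51, 0.095 and 0.059. Ncoa1, Ncoa2 and Ncoa3 were at -0.24, -0.41 and 0.23, with groups that overlapped. Of the 13 receptors tested 11 were negative, of 10 corepressors 8, of 15 coactivators 8, and of 7 genes of ligand supply 3. Basal markers summed to 177096 to 283081 in luminal and 253955 to 458246 in basal-like domains, and leukocyte markers to 6814 to 14663 and 3906 to 18412. Luminal markers summed to 132196 to 525596 in luminal and 43173 to 137593 in basal-like domains, and fibroblast and smooth muscle markers to 6610.0 to 33873 and 15626 to 107543. Their part in these values was not tested.

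**Figure D5:**
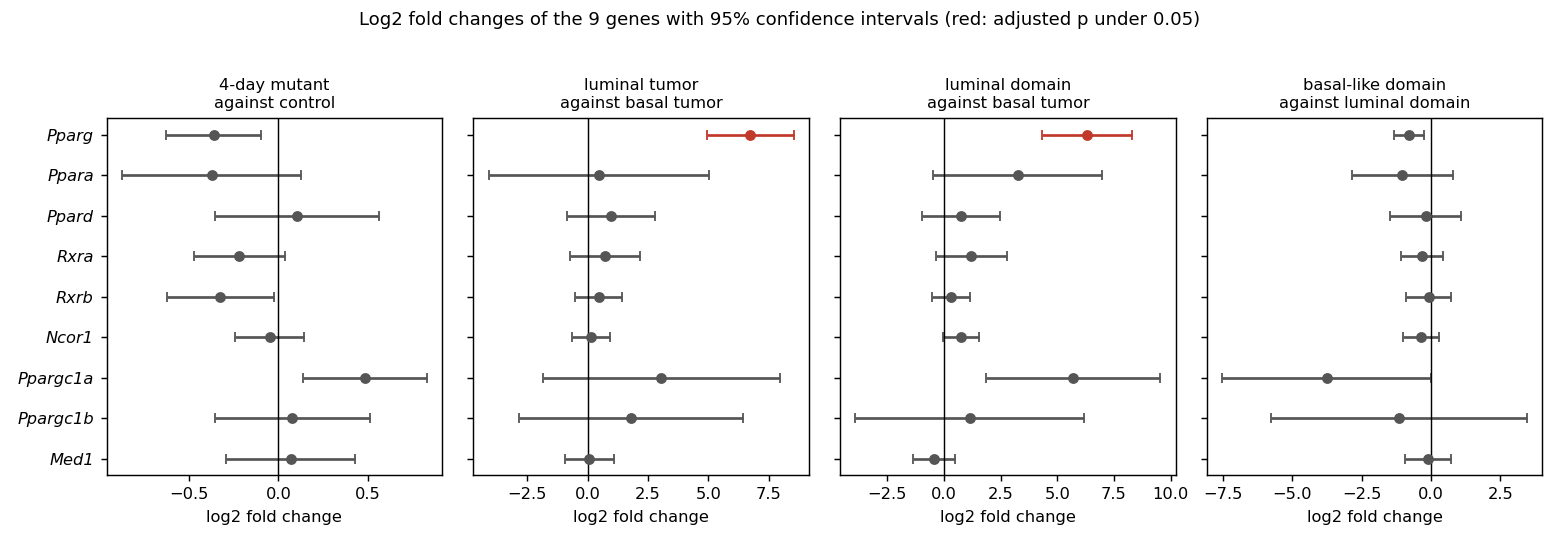
Log2 fold changes of the 9 genes (points) with 95% confidence intervals (bars) in the 4 comparisons, on a separate horizontal axis for each. Red marks an adjusted p under 0.05 in limma, which only Pparg reached, at 6.74 for luminal tumors and 6.31 for luminal domains against basal tumors.

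The genes whose log2 values were most like those of Pparg differed from table to table. These Pearson correlations are over all libraries of a table, which span its groups, and are given as a description. They were taken over genes whose mean was 100 normalized counts or more. Over the 9 libraries of sorted cells 4 of the 5 highest were Fbf1 (0.991), Arvcf (0.974), AW146154 (0.973) and Sox15 (0.971). Among the members Rxrb was at 0.88, Rxra at 0.82 and Ppargc1a at -0.64, and Fabp4 was at -0.76. Over the 8 libraries of tumors and luminal domains the highest were Chmp2b (0.988), Cmbl (0.987), Fam13a (0.980), Slc37a1 (0.978) and Tmem102 (0.972). There Ppargc1a was at 0.62, Rxra at 0.37 and Fabp4 at 0.78. Over the 6 domain libraries 4 of the 5 highest were Arpc1a (0.998), Scamp5 (0.990), Sidt1 (0.990) and Ttll10 (0.986), with Ppara at 0.78 and Rxra at 0.69.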

How the data were processed

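RNA of sorted Gfp+ urothelial cells and of laser-captured tumor cells was sequenced by the authors after SMART-Seq v4 and Nextera XT preparation, which does not mark strand. Per the submitters' processing notes, bcl2fastq 2.20, kallisto 0.44.0 and DESeq2 1.18 were used, with GRCm38 and GRCh38 named as builds. The transcript index is not given in the sources used here. The deposited signal values are normalized counts: the authors divided kallisto estimates by factors that differ between genes, so whole reads could not be recovered and depth is unknown. Columns of the authors' own fold changes and p-values were not used. Values of 8 columns whose condition no label states were not used.

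Samples were grouped by their titles, and columns were assigned to groups by the tables that each sample's description names. In R 4.3.3 with limma 3.58.1, lmFit and eBayes with a trend were run on log2(normalized count + 1), for genes with at least 10 normalized counts in as many libraries as the smaller group, with Benjamini-Hochberg adjustment at 0.05. A single fit held the 3 groups of the 8-library table. Tables and plots were made in Python 3.11.15 (pandas 2.3.3, matplotlib 3.10.9). The procedure was tested on simulated data. The alternatives were pseudocounts of 0.5 and 5, no filter or one of 50, eBayes without a trend or robust, quantile and upper-quartile scaling, each library left out, the table of 6 sorted libraries, pooled luminal samples, 6 tumors alone, and the Y-linked covariate.

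The members and lists were chosen with earlier results of these data known. Named genes were all members, genes of the lists that passed (at most 8 by size), 9 genes that were always named (Fabp4, Plin2, Angptl4, Cpt1a, Pdk4, Rxrg, Ncoa1, Ncoa2 and Ncoa3) and the 5 most like Pparg, without predicted genes. Values of 4 genes that this rule takes in are not reported here, though counts over lists include them. Fabp5, Gk, Ehhadh, Fabp1, Dbi and Pnpla2 are named because they passed. Values of Pnpla2 in other comparisons were chosen after they were seen.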

Additional observations from a re-analysis of the deposited data

Results flagged for a closer look

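In the sorted cells 36 groups, the 2 groups of 18 genes, were searched for a library that stood apart from the rest of its group by Dixon's 95% limit, which chance passes in about 1 of 20 groups. There was 1 such library. Fabp4 in mutant library 1 was 30598 normalized counts, and the nearest mutant was 7617. It was kept in the values reported, and the cause was not tested.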

How the results depend on the processing

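Counts of genes that passed moved by over 1.5 times with several choices, and the cause was not tested. Leaving out a library gave 129 to 596 genes at 4 days against 467, 3 to 813 for luminal tumors against 338, 0 to 467 for luminal domains against 377, and 0 between domains. Without a trend the counts were 269, 142, 107 and 20. Without a filter 52 and 144 genes passed in the tumor and luminal domain comparisons. The table of 6 sorted libraries gave 147, the Y-linked covariate 26, pooled luminal tumors and domains 513, and the 6 tumors alone 142. The count of members that passed went from 1 to 0 without a trend for luminal domains, and ranged from 0 to 1 over left-out libraries in both comparisons with basal tumors. Pparg ranged from 5.73 to 7.32 for luminal tumors and from 5.29 to 6.89 for luminal domains when a library was left out, and was 6.31 without a trend. The lowest counts came without control 3, without luminal tumor 1 or 2, and without luminal domain 1 or 2. The highest came without mutant 2, luminal tumor 3 and basal tumor 2, respectively. Higher and lower calls split 290 to 177 at 4 days and 270 to 287 under quantile normalization, and 254 to 123 for luminal domains and 179 to 134 under upper-quartile scaling. The median log2 fold change of all genes moved from -0.11 to 0.021 under quantile normalization for luminal tumors, and from 0.0097 to -0.14 under upper-quartile scaling for luminal domains. Pparg kept its sign in every alternative of all 4 comparisons.

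Signs that turned belonged to genes that did not pass. With a library left out, at 4 days, the log2 fold changes ranged as follows: Ppard -0.070 to 0.21, Ncor1 -0.090 to 0.00065, Ppargc1b -0.013 to 0.20, Med1 -0.014 to 0.20 and Cpt1a -0.0054 to 0.15. With quantile normalization, at 4 days, Ppard was at -0.13, Ppargc1b was at -0.045 and Cpt1a was at -0.013. With the Y-linked covariate, at 4 days, Ppard was at -0.20, Ppargc1b was at -0.30, Pdk4 was at 0.61, Ncoa1 was at -0.053 and Ncoa2 was at 0.0047. In the table of 6 sorted libraries, at 4 days, Med1 was at -0.13 and Cpt1a was at -0.087. With a library left out, for luminal against basal tumors, the log2 fold changes ranged as follows: Ppara -1.24 to 2.40, Rxra -0.12 to 1.15, Ncor1 -0.16 to 0.43, Ppargc1b -0.73 to 3.08, Med1 -0.16 to 0.39, Cpt1a -0.0088 to 1.39 and Ncoa3 -0.29 to 0.88. With quantile normalization, for luminal against basal tumors, Ncor1 was at -0.013. With upper-quartile scaling, for luminal against basal tumors, Med1 was at -0.0082. With luminal samples pooled, for luminal against basal tumors, Med1 was at -0.23 and Ncoa3 was at -0.029. With a library left out, for luminal domains against basal tumors, the log2 fold changes ranged as follows: Ppargc1b -1.31 to 2.41, Ncoa1 -0.35 to 0.20, Ncoa2 -0.73 to 0.45 and Ncoa3 -0.27 to 0.57. With upper-quartile scaling, for luminal domains against basal tumors, Ncoa3 was at -0.045. With a library left out, for basal-like against luminal domains, the log2 fold changes ranged as follows: Ppard -0.52 to 0.29, Rxrb -0.22 to 0.21, Ppargc1b -2.56 to 0.97, Med1 -0.37 to 0.074, Fabp4 -2.07 to 1.19, Cpt1a -0.082 to 0.30, Pdk4 -0.59 to 0.52, Ncoa1 -0.74 to 0.20, Ncoa2 -0.92 to 0.25 and Ncoa3 -0.24 to 0.60. With quantile normalization, for basal-like against luminal domains, Pdk4 was at -0.096. No paired analysis was possible because the table columns carry library numbers and not the replicate numbers of the labels. Depth in reads is unknown, so values near 0, such as those of Ppara, Ppargc1a and Ppargc1b in single tumor libraries, cannot be told from absence.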
